A study of Mus musculus with 8 samples.

Results

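Glycolysis turns glucose into pyruvate, and the transcription factor HIF-1 is among its best known regulators. Described here are 10 genes of this system, namely Hif1a, the glucose transporter genes Slc2a1 and Slc2a3, and the enzyme genes Hk2, Aldoa, Gapdh, Pgk1, Eno1, Pkm and Ldha. They were chosen by name, though with earlier results of these data known, and all 10 were among the 28434 gene rows of both deposited tables. C57BL/6 mice, 10 weeks old, were made arthritic by repeated injection (days 0, 2 and 9) of K/BxN serum, whose autoantibodies cause joint inflammation. Later they received monocytes from the bone marrow of arthritic mice incubated beforehand for 90 min in vehicle (Mono, 4 mice) or in 1 nM of the lipid mediator MCTR3 (Mono+MCTR3, 4 mice). CD45+ cells, that is leukocytes, were sorted from the paw joints on day 22 and sequenced one by one with a 3′ protocol. Every mouse carried the arthritis and received monocytes, so neither healthy joints nor joints without transferred cells were part of the comparison. The transferred cells were not marked in these data, so each class holds cells of the recipient and possibly of the donor.

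HIF-1 is a dimer of HIF-1α, the product of Hif1a, and its partner ARNT. When oxygen is scarce, HIF-1α is spared from degradation and the dimer binds short sites in the promoters of its target genes, among them those of glucose transporters and most glycolytic enzymes. Because oxygen acts mainly on the HIF-1α protein, the transcript level of Hif1a does not measure the activity of HIF-1. Neutrophils have few mitochondria and rely on glycolysis for their energy, and macrophages raise glycolysis when they are activated.

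After quality filters 10256 of 10538 barcodes remained, 758 to 1913 per mouse, with 1731045 to 6009009 unique molecular identifiers (UMIs, each counted as 1 captured transcript) per mouse. Clustering without the 10 genes and their pathway neighbours gave 6940 neutrophils, 1408 B-cells, 763 T-cells, 633 NK cells and 384 cells of 2 clusters, named macrophage-like and nonclassical-monocyte-like from their markers and called MDM after the study's monocyte-derived macrophages. Clustered again by themselves, 165 of the MDM were classical-monocyte-like, 74 macrophage-like and 48 nonclassical-monocyte-like, and 97 kept no name. Their 9 classical monocyte markers summed to 8063 CPM (counts per 1000000 UMIs) on average and their 11 macrophage markers to 4062 CPM. MDM here thus stands for monocytes and macrophages together, with the 97 unnamed cells among them. Those 97 cells scored highest on the dendritic cell markers, with 7 of 9 detected. Neutrophils fell into early granule-forming (671 cells, led by Chil3, Ltf, Fcnb and Camp), stefin-high (1672), mature (2172), inflammatory (1576, led by Clec4n and Ccrl2) and interferon-response cells (200). In the early cluster 4 of the 8 markers of its stage were detected, and Ltf and Camp are markers of the secondary-granule stage. A cluster with Ltf and Chil3 among its leading genes was named secondary-granule with no upper limit on genes and with 10 or 30 components. The name of the early cells thus depended on the clustering. A further cluster of 649 cells, led by Stfa3 and Mmp8, did not keep a stage name and is called Mmp8+ Cd177+ neutrophils. Mono+MCTR3 mice 3 and 4 had 11 and 7 MDM, and the interferon-response cells numbered 9 to 63 per mouse. Some leading genes belonged to other cell types, such as the haemoglobin genes Hbb-bs and Hba-a2 in mature neutrophils and Dcn in inflammatory neutrophils. Levels are given in CPM of the same cells of 1 mouse, and means are over mice with at least 10 such cells.

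Between early granule-forming and mature neutrophils the 10 genes split. The 6 enzyme genes tested were higher in the early cells, whereas Hif1a and both transporter genes were lower there. Pkm turned under library totals, with 10 components and without the upper limit on genes, and Eno1 turned without that limit. In edgeR's quasi-likelihood test with each mouse as its own control, 6 of 9 members tested were higher and 3 were lower at an adjusted p under 0.05. The background was high, as 33.8% of all 3481 genes tested were higher and 34.1% were lower in the same comparison, and with library totals in place of TMM, edgeR's trimmed mean scaling, 24.3% were higher and 46.2% lower. The clusters had been formed without these genes, though other genes of the same cells had formed them.

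Ldha codes for the lactate dehydrogenase subunit that favours the step from pyruvate to lactate (GRCm38, chr7:46841475-46855627). Its level in early granule-forming neutrophils was 740, 945, 914 and 816 CPM in the Mono mice and 698, 743, 687 and 842 CPM in the Mono+MCTR3 mice. In mature neutrophils it was 229, 222, 240 and 142 CPM in the Mono mice and 272, 289, 238 and 257 CPM in the Mono+MCTR3 mice. The ranges of the early and mature cells lay far apart, with a log2 fold change of 2.09 ± 0.12 (SE, 8 mice, adjusted p = 7.5e-13), a 4.26-fold higher level. Along early granule-forming, Mmp8+ Cd177+, stefin-high and mature cells the mean went from 798 to 548, 330 and 236 CPM, and it fell at every step in 8 of 8 mice. Per cell the mean was 4.44 ± 0.454 UMIs in the early and 0.364 ± 0.0797 UMIs in the mature cells (SD, 8 mice).

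Hif1a, which codes for the oxygen-regulated subunit (chr12:73901375-73947530), went the other way. It was at 24.4, 0, 11.8 and 20.7 CPM in early granule-forming neutrophils of the Mono mice and at 13.04, 18.3, 14.5 and 10.4 CPM in those of the Mono+MCTR3 mice. In mature neutrophils it was at 77.2, 112, 79.9 and 76.3 CPM and at 93.5, 93.1, 67.7 and 81.1 CPM. Every mature value exceeded every early value, and the fitted difference was −2.14 ± 0.24 on the log2 scale (adjusted p = 3.87e-08). The mean rose over the same 4 kinds of cells from 14.1 to 29.9, 61.0 and 85.1 CPM, with a rise at every step in 7 of 8 mice. These levels rest on 61 UMIs of Hif1a in the early and 287 UMIs in the mature cells.

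Slc2a3, the gene of the high-affinity glucose transporter GLUT3 (chr6:122727809-122801640), rose at every step in 8 of 8 mice, with means of 113, 216, 283 and 343 CPM. Its early values were 81.3, 126, 121 and 96.2 CPM in the Mono and 117, 77.2, 128 and 156 CPM in the Mono+MCTR3 mice. The mature values were 306, 351, 381 and 283 CPM and 305, 312, 408 and 394 CPM, with no overlap. The early level was 2.48-fold lower (log2 fold change −1.31 ± 0.10, adjusted p = 7.82e-11). This is a statement about shares of the transcripts counted. With the 50 genes with the most UMIs left out of the totals, Slc2a3 rose at every step in 2 of 8 mice. Its means were then 312, 596, 717 and 697 CPM. The mature cells held fewer UMIs (a median of 1449.5 per cell against 5162), and per cell Slc2a3 was at 0.622 ± 0.110 UMIs in the early and 0.525 ± 0.0741 UMIs in the mature cells, higher in the early cells of 6 of 8 mice. Hif1a per cell was at 0.0805 ± 0.0455 and 0.131 ± 0.0232 UMIs, higher in the mature cells of 6 of 8 mice. Less RNA per cell and a lower capture rate cannot be told apart in such counts.

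Slc2a1 codes for GLUT1, the transporter found in most cell types (chr4:119108711-119137983). It was at 7.79 ± 8.89 CPM in early and 43.4 ± 9.55 CPM in mature neutrophils (SD, 8 mice), and lower in the early cells of 8 of 8 mice. The fitted difference was −2.11 ± 0.40 on the log2 scale (adjusted p = 6.8e-05) and rests on 28 UMIs in the early cells. Hk2, a hexokinase gene (chr6:82725025-82774454), was 2.97-fold higher in the early cells. Its mean was 25.2 ± 9.14 against 10.6 ± 6.03 CPM, higher in 8 of 8 mice (log2 fold change 1.57 ± 0.32, adjusted p = 0.000138). Slc2a1 and Hk2 thus differed in opposite directions between the same cells.

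Gapdh codes for glyceraldehyde-3-phosphate dehydrogenase (chr6:125161715-125166467). It was at 1290, 1221, 1276 and 1373 CPM in early granule-forming neutrophils of the Mono mice and at 1324, 1482, 1059 and 1196 CPM in the Mono+MCTR3 mice. In mature neutrophils it was at 896, 775, 735 and 774 CPM and at 863, 924, 622 and 794 CPM. The lowest early value was above the highest mature value, and the difference was 2.02-fold (log2 fold change 1.01 ± 0.09, adjusted p = 4.49e-10). The remaining enzymes differed less. Aldoa, the aldolase gene (chr7:126795234-126800751), had a log2 fold change of 0.49 ± 0.08 (adjusted p = 1.85e-05), and Eno1, an enolase gene (chr4:150236721-150248879), one of 0.56 ± 0.10 (adjusted p = 3e-05). Pkm, the pyruvate kinase gene (chr9:59656368-59679375), had 0.27 ± 0.09 (adjusted p = 0.00822). In CPM the mean of Pkm was 1180 in early and 1228 in mature cells, higher in the mature cells of 5 of 8 mice. Eno1 was higher in the early cells of 6 of 8 mice and Aldoa in those of 7 of 8. With library totals in place of TMM scaling Eno1 was at 0.23 (adjusted p = 0.0432), Aldoa no longer passed (0.17, adjusted p = 0.0729), and Pkm had the opposite sign (−0.05, adjusted p = 0.544). Hif1a, Slc2a1, Slc2a3, Hk2, Gapdh and Ldha kept their direction and an adjusted p under 0.05 in each alternative that could test them. Pgk1, the phosphoglycerate kinase gene (chrX:106187100-106203699), had too few UMIs for the test as planned. It was at 11.6 ± 5.17 CPM in early and 2.47 ± 2.60 CPM in mature cells (SD, 8 mice), higher in the early cells of 8 of 8 mice, and where an alternative tested it the log2 fold change was 2.23 with no filter on low counts (adjusted p = 7.98e-05) and 2.80 at resolution 0.3 (adjusted p = 1.17e-05).

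**Figure D1:**
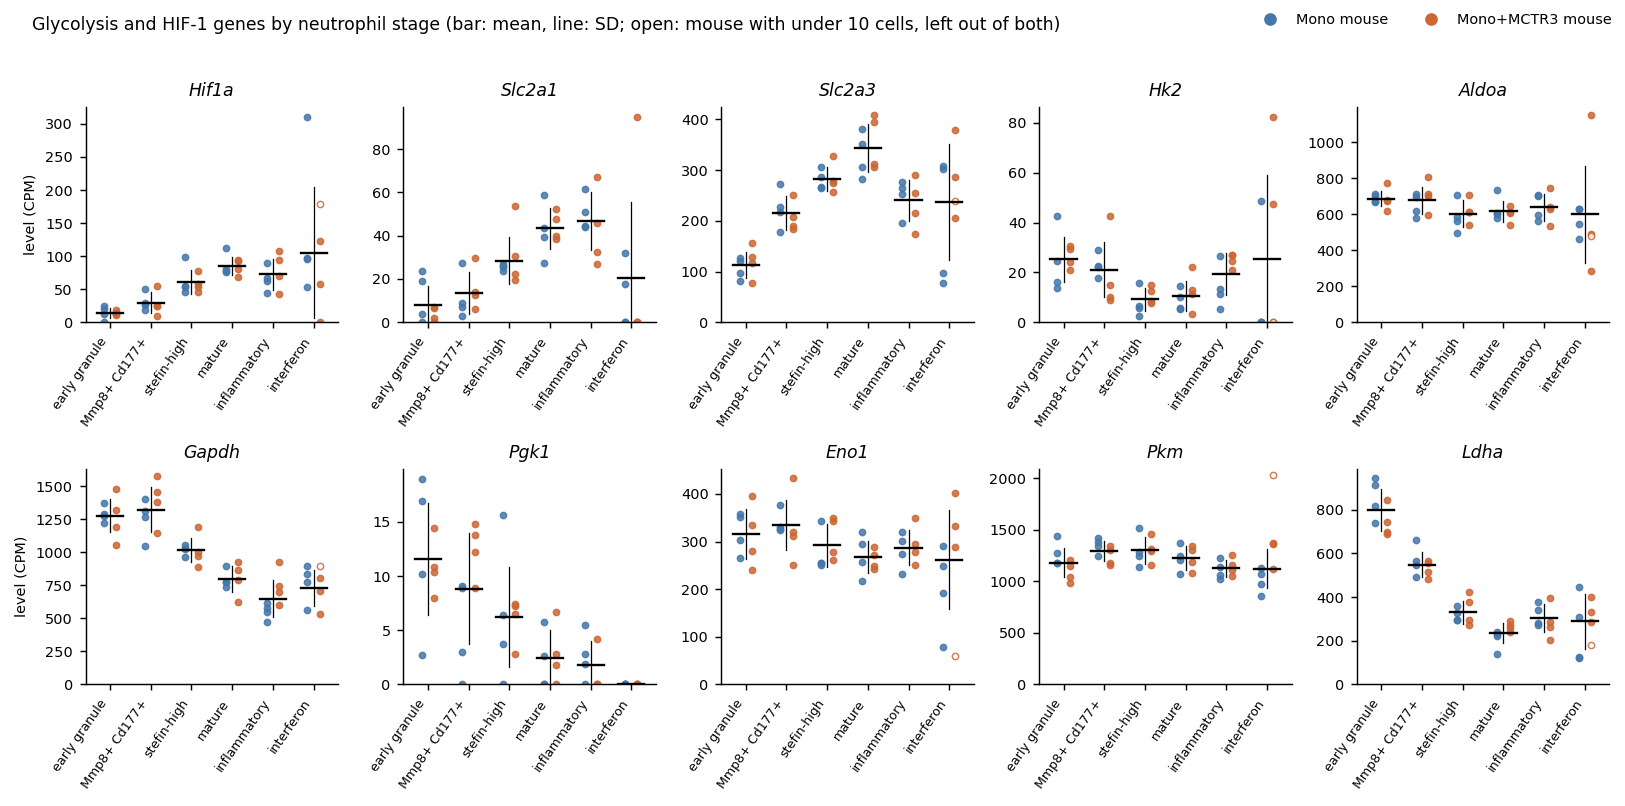
Level of each of the 10 genes in CPM (vertical axis, from 0) in the 6 kinds of neutrophils (horizontal axis), with 1 point per mouse coloured by group, a bar for the mean and a line for the SD, drawn no lower than 0; open points are mice with under 10 cells. From early granule-forming to mature cells Hif1a rises from a mean of 14.1 to 85.1 CPM and Slc2a3 from 113 to 343 CPM, while Ldha falls from 798 to 236 CPM, and the points of the 2 groups lie among each other.

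Scaling moved all these contrasts together. The median of all genes was −0.008 with TMM and −0.339 with library totals, and a change of scaling shifts all genes by nearly the same amount. Relative to the TMM median Ldha was at 2.10 and Hif1a at −2.13. The 50 genes with the most UMIs over all cells took 63.9% of the UMIs of the early and 51.0% of those of the mature cells. Without these genes in the totals, Hif1a, Slc2a1 and Slc2a3 were higher in the mature cells of 8 of 8 mice. The other 7 members were then higher in the early cells of 8 of 8 mice. Hif1a rose at every step in 5 of 8 mice on this scale and Slc2a3 in 2 of 8, and Ldha fell in 8 of 8. The early cells also had a summed level of 10 cell cycle genes of 1901 ± 517 CPM against 1447 ± 61.9 CPM in mature cells, and of 11 immediate early and stress genes of 1787 ± 405 against 7311 ± 2116 CPM. All 10 and all 11 of these genes had UMIs in both kinds of cells, and the part of either list in the result was not tested.

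Other genes of the pathway gave the same contrast a wider frame. Of 19 other glycolysis genes 9 were tested, of which 5 were higher and 3 lower in the early cells, against 33.8% and 34.1% of all genes. Gpi1, the gene of the isomerase after hexokinase, was at 662 against 408 CPM, whereas Slc16a3, which codes for a lactate exporter, was at 347 against 1524 CPM. Slc2a6, a further member of the transporter family, had the lowest value among the pathway genes tested (log2 fold change −3.86 ± 0.23, adjusted p = 8.88e-13). Of the 7 pentose phosphate genes, whose pathway supplies NADPH for the oxidative burst and for synthesis, 4 were higher and 1 lower. They included Rpe at 3.18 ± 0.29 and Pgls at 2.08 ± 0.15 on the log2 scale (adjusted p = 1.63e-09 and 3.36e-11). Taldo1 was the one that was lower, at 1021 against 2898 CPM.

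Among 18 other HIF-1 target genes 14 were tested, and 8 were lower and 2 higher in the early cells, with a median log2 fold change of −0.76. Of all genes 34.1% were lower and 33.8% higher. Cxcr4, a chemokine receptor gene, stood at 65.3 against 632 CPM (−2.94 ± 0.11, adjusted p = 3.96e-16), and Bnip3, a mitophagy gene, at 10.2 against 66.0 CPM (−2.34 ± 0.24, adjusted p = 1.53e-08). Ero1l, an oxidase of the endoplasmic reticulum, differed the other way (2.92 ± 0.21, adjusted p = 2.81e-11). Of 12 HIF-1 partners and regulators 4 were tested, and Arnt, Elob and Eloc were lower while Rbx1 was higher in the early cells. Under library totals the counts higher and lower were 5 and 3 for the other glycolysis genes and 4 and 2 for the pentose phosphate genes. They were 1 and 9 for the targets and 1 and 3 for the partners and regulators, against 24.3% and 46.2% of all genes. The targets were named as such from general knowledge, and the enzyme genes Ldha and Gapdh, also known targets, stood on the other side.

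**Figure D2:**
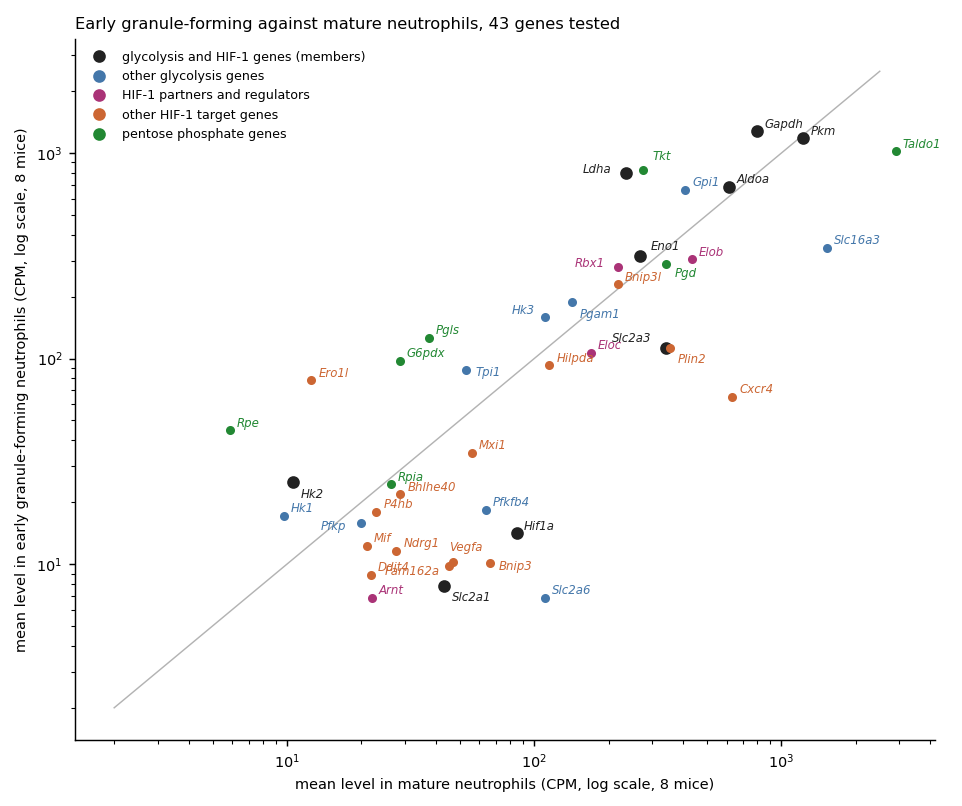
Mean level of each of the 43 tested genes in mature (horizontal axis) and early granule-forming neutrophils (vertical axis), in CPM on log scales over 8 mice, coloured by list; the line marks equal levels. Ldha, Tkt, Rpe and Ero1l lie above the line, and Hif1a, Slc2a1, Slc2a3, Slc16a3, Cxcr4 and Slc2a6 lie below it.

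The promoter sequences of members that differed in opposite directions are shown here to set them side by side. They are RefSeq windows on GRCm38.p6, from 250 bases before to 50 after a start site and written 5′ to 3′, and 15 such windows matched 9 of the 10 members. The core of the HIF-1 binding site, ACGTG or GCGTG on either strand (on the other strand CACGT or CACGC), is in capitals. Matches that overlap, as in CACGTG, run together. Hif1a lies at chr12:73907617-73907916 (plus strand), Slc2a1 at chr4:119108495-119108794 (plus strand), Hk2 at chr6:82774405-82774704 (minus strand) and the first Ldha window at chr7:46845554-46845853 (plus strand).
Hif1a: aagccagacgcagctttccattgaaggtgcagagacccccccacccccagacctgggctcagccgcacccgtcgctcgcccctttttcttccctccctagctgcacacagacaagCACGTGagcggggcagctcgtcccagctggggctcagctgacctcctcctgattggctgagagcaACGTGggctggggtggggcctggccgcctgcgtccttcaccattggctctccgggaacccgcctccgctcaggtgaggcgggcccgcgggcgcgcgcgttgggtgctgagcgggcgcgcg
Slc2a1: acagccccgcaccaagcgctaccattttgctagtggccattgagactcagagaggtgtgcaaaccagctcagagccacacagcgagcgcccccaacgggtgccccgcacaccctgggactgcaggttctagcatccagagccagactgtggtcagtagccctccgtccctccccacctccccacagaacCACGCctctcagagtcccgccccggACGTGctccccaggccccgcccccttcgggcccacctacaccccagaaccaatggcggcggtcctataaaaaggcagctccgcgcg
Hk2: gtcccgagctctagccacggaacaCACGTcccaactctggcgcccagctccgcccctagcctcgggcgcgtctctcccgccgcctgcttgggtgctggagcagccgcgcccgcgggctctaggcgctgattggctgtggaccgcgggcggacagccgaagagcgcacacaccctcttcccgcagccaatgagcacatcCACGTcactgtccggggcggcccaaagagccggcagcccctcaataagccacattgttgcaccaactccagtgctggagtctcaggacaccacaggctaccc
Ldha: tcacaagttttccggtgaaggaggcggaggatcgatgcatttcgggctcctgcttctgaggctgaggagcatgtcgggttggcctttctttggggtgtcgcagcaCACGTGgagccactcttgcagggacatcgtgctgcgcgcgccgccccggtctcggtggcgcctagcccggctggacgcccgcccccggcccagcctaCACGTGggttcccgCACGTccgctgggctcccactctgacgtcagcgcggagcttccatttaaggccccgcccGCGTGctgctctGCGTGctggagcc
The Ldha window held 7 matches, counted by start position, against 3 for Hif1a and 2 each for Slc2a1 and Hk2. Of all 32851 windows 43.8% held at least 1 match and 1.66% held at least 5. Among the members 13 of 15 windows held a match, and those without one were windows of Aldoa and Pkm, genes with a match in another window. Members on either side of the contrast held matches, and a match of 5 bases is a description of the sequence and not of binding.

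Inflammatory neutrophils, which carried cytokine transcripts such as Tnf, Cxcl2 and Ccl3, had lower levels of several members than mature ones. Of 8 members tested 5 were lower and 0 were higher, against 12.0% and 12.4% of all 3209 genes. Slc2a3 was at 264, 277, 252 and 196 CPM in inflammatory neutrophils of the Mono mice and at 216, 175, 290 and 254 CPM in those of the Mono+MCTR3 mice, each below the same mouse's mature cells. Its log2 fold change was −0.78 ± 0.09 (adjusted p = 3.66e-08). Gapdh was lower too (−0.58 ± 0.08, adjusted p = 1.51e-06), with means of 648 and 798 CPM. Hif1a (−0.51 ± 0.14, adjusted p = 0.00736), Pkm (−0.39 ± 0.07, adjusted p = 5.51e-05) and Aldoa (−0.22 ± 0.07, adjusted p = 0.0163) were lower by less.

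Only Slc2a3 and Gapdh among these kept their call in every alternative run. With library totals the median of all genes moved from 0.008 to 0.288, Hif1a and Pkm no longer passed (−0.23 and −0.11), Aldoa changed sign (0.06), and Ldha, at 0.09 ± 0.10 with TMM (adjusted p = 0.588), became higher at 0.37 (adjusted p = 0.00619). Members were then 2 lower and 1 higher, against 4.49% and 36.7% of all genes on that scale. Aldoa also failed without Mono mouse 2, at −0.21 (adjusted p = 0.0553). Of the other glycolysis genes 3 of 8 tested were lower and 0 higher, and of the pentose phosphate genes 3 of 6 were lower, led by Tkt at −1.03 ± 0.10 (adjusted p = 6.41e-09) and Pgd at −0.88 ± 0.10 (adjusted p = 3.64e-08). Other HIF-1 targets went both ways, 3 higher and 3 lower of 13. Bhlhe40, which codes for a stress-responsive repressor (1.76 ± 0.18, adjusted p = 1.08e-08), and Mif, a cytokine gene (1.32 ± 0.22, adjusted p = 3.77e-05), were higher, as was Cxcr4 (0.29 ± 0.07, adjusted p = 0.00199), while Mxi1, a MYC antagonist gene, was lower (−0.63 ± 0.18, adjusted p = 0.00993). None of 4 HIF-1 partners and regulators tested passed. With library totals the counts higher and lower were 1 and 2 for the other glycolysis genes, 1 and 2 for the pentose phosphate genes, 8 and 0 for the other HIF-1 targets and 3 and 0 for the HIF-1 partners and regulators.

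Across cell classes Slc2a3 was the member with the clearest order. In neutrophils it was at 233, 279, 255 and 190 CPM in the Mono and at 225, 181, 286 and 288 CPM in the Mono+MCTR3 mice. In MDM it was at 6.09, 10.9, 13.7 and 7.25 CPM and at 20.2, 5.59, 0 and 0 CPM, and these values rest on 21 UMIs in all. NK cells lay between, at 42.9 ± 9.48 CPM, and T-cells and B-cells were at 19.1 ± 11.8 and 18.1 ± 8.98 CPM. In an exact paired permutation test over mice (two-sided, smallest possible p = 0.00781), neutrophils were above NK cells and NK cells above T-cells (adjusted p = 0.0439 for each), while T-cells, B-cells and MDM did not differ beyond their spread. The edgeR difference of MDM from neutrophils was −5.98 ± 0.22 on the log2 scale (adjusted p = 5.14e-16) and −4.63 with library totals. Summed over 13 neutrophil markers, MDM held 1806 to 23703 CPM and the lymphocyte classes 3014 to 15097 CPM per mouse. Neutrophils held 262547 to 449188 CPM, so transcripts of these markers were counted in every class. Whether they came from neutrophils, and the part of such transcripts in the low Slc2a3 levels outside neutrophils, was not tested.

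Hk2 had its highest mean in MDM, at 54.6 ± 13.7 CPM (7 mice), against 16.6 ± 4.18 CPM in neutrophils and 3.23 to 4.89 CPM in lymphocytes. The MDM values were 27.4, 70.8, 51.4 and 65.2 CPM in the Mono and 56.6, 54.5, 55.9 and 70.8 CPM in the Mono+MCTR3 mice, all above the neutrophil values of 10.2 to 20.9 CPM. After TMM scaling the difference was 0.37 ± 0.20 on the log2 scale (adjusted p = 0.0905), and with library totals it was 1.75 (adjusted p = 3.16e-08). It also passed without called doublets (0.71, adjusted p = 0.00227), when cells over the gene limit were kept (0.54) and with 10 components (0.48). Over all 21 alternatives the value ran from 0.18 to 1.75, with an adjusted p of up to 0.610 in edgeR. The exact test on CPM gave an adjusted p of 0.0439 for neutrophils against B-cells. MDM were above neutrophils in 7 of 7 mice with at least 10 MDM, and the smallest p that 7 mice allow, 0.0156, came to an adjusted p of 0.0670, so the exact test called no pair with MDM.

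For the other members the comparison of MDM with neutrophils depended on the scale. With TMM 8 of 9 members tested were lower in MDM and 0 were higher, against 32.9% and 38.3% of all 8372 genes. With library totals 2 were lower (Slc2a3 and Pkm) and 3 were higher (Hk2, Gapdh and Eno1), against 11.0% and 71.4% of all genes on that scale. Gapdh was at 1208 ± 290 CPM in MDM and 1012 ± 162 CPM in neutrophils, with a log2 fold change of −1.09 ± 0.12 by TMM (adjusted p = 3.06e-08) and 0.28 by totals (adjusted p = 0.0244). Eno1 turned from −0.82 to 0.55 and Aldoa from −1.35 to 0.03, while Hif1a went from −1.42 to −0.05 and Ldha from −1.47 to −0.09. The median of all genes stood at 0.200 with TMM and 1.56 with totals, and relative to the TMM median Gapdh was at −1.29. The 50 genes with the most UMIs took 56.2% of the UMIs of neutrophils and 21.4% of those of MDM. Without these, neutrophils were above MDM for Aldoa (1468 and 808 CPM), Gapdh (2349 and 1546), Eno1 (674 and 521) and Pkm (2794 and 1204). Each held in 7 of 7 mice (exact paired permutation test, adjusted p = 0.0454), while Hk2 went the other way and Pgk1 did not pass. Per cell, Gapdh was at 7.69 ± 2.42 UMIs in MDM and 2.28 ± 0.789 UMIs in neutrophils, and Ldha at 2.69 ± 0.767 and 0.971 ± 0.257 UMIs. Slc2a3 was lower per cell too, at 0.0565 ± 0.0426 UMIs per MDM and 0.521 ± 0.0453 UMIs per neutrophil, and Pkm was lower in MDM on both scalings (−1.72 and −0.34).

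Of the other glycolysis genes 16 were tested between MDM and neutrophils, and 5 were higher and 7 lower in MDM. Eno3, an enolase gene, was higher (log2 fold change 4.43 ± 0.42, adjusted p = 3.62e-09), but it was also the second of the genes that led the 48 nonclassical-monocyte-like MDM. Summed over mice, Eno3 was at 825 CPM in these cells, with 119 UMIs, and at 2.87 to 27.5 CPM in the other 3 sub-clusters. Slc16a1, a lactate transporter gene (4.14 ± 0.60, adjusted p = 3.08e-06), and Pdk1, a brake on pyruvate oxidation (2.73 ± 0.60, adjusted p = 0.000401), were higher too. Of the Slc16a1 UMIs in MDM, 33 were in the sub-cluster that kept no name. The classical-monocyte-like, macrophage-like and nonclassical-monocyte-like cells held 5, 1 and 0. Pdk1 had 9 UMIs in the sub-cluster without a name and 6, 11 and 2 in these others. Slc16a3 (−4.59 ± 0.16, adjusted p = 1.71e-16), the hexokinase gene Hk3 (−3.42 ± 0.21, adjusted p = 2.15e-12) and the lipid droplet gene Hilpda (−2.83 ± 0.25, adjusted p = 8.68e-10) were lower, and these 6 kept their sign with library totals. With TMM, HIF-1 partners and regulators were 0 higher and 4 lower of 9, other HIF-1 targets 3 higher and 9 lower of 16, and pentose phosphate genes 1 higher and 5 lower of 7, against the 38.3% higher and 32.9% lower of all genes. With library totals the partners and regulators turned to 9 higher and 0 lower, the targets to 7 and 4, the pentose phosphate genes to 3 and 3 and the other glycolysis genes to 10 and 5, so the direction of most lists depended on the scale.

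**Figure D3:**
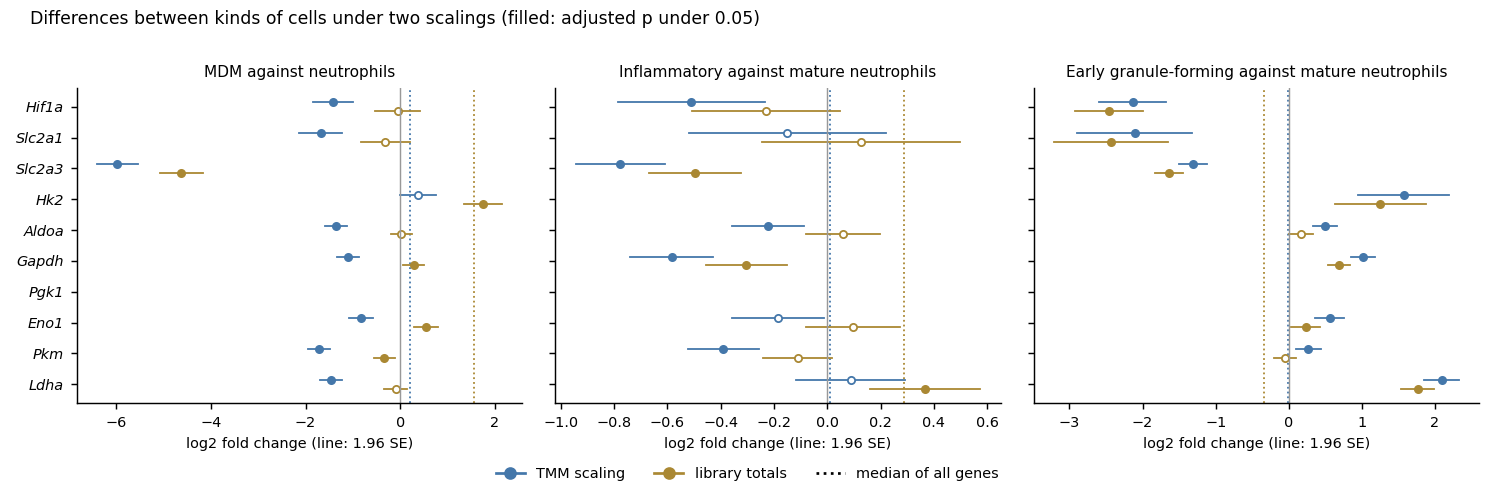
Log2 fold change of each member (horizontal axis, line of the 95% interval) in MDM against neutrophils, inflammatory against mature and early granule-forming against mature neutrophils, with TMM scaling and with library totals; filled points have an adjusted p under 0.05 and dotted lines are the median of all genes. Points shift with the dotted line, most in the first panel, where Gapdh is at −1.09 with TMM and 0.28 with totals, while Slc2a3 stays far to the left.

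B-cells had the lowest means of Gapdh, Eno1, Pkm and Ldha. Ldha was at 190 ± 25.2 CPM in B-cells and at 422 to 437 CPM on average in the other 4 classes, whose neighbours in the order did not differ beyond their spread. MDM were above B-cells in 7 of 7 mice, with the same adjusted p of 0.0670. Without the 50 genes with the most UMIs in the totals, Ldha was at 1007 CPM in neutrophils and 567 CPM in T-cells, higher in 8 of 8 mice (exact paired permutation test, adjusted p = 0.0454). Eno1 was at 136 ± 36.3 CPM in B-cells, below the 222 ± 35.4 CPM of T-cells (adjusted p = 0.0439), and Pkm was at 275 ± 30.6 CPM, below the 372 ± 57.6 CPM of NK cells (adjusted p = 0.0439). Gapdh was at 357 ± 51.7 CPM in B-cells and 402 ± 80.5 CPM in NK cells (adjusted p = 0.0879), and T-cells, at 492 ± 70.3 CPM, were above NK cells (adjusted p = 0.0439). Hif1a had means of 25.3 to 53.9 CPM and Slc2a1 of 19.1 to 28.7 CPM over the 5 classes, and no neighbours in either order differed. Without the same 50 genes Hif1a was at 122 CPM in neutrophils and 61.0 CPM in MDM, higher in 7 of 7 mice (adjusted p = 0.0454, exact test). In all, 8 of 40 neighbour pairs of classes and 8 of 50 pairs of neutrophil kinds differed after adjustment over the 90 pairs, and 17 and 14 did without these 50 genes.

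**Figure D4:**
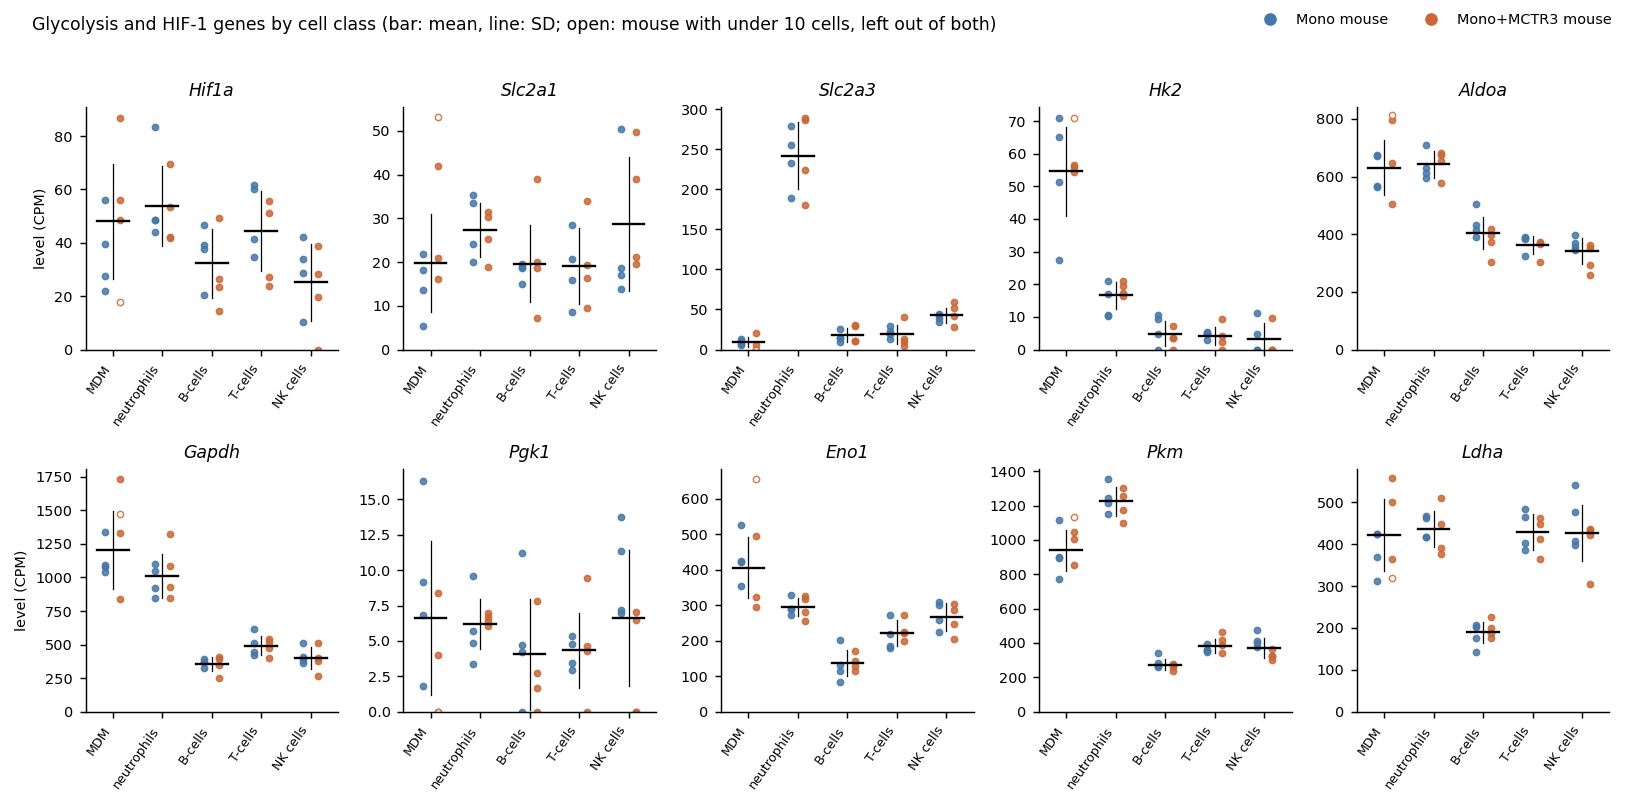
Level of each of the 10 genes in CPM (vertical axis, from 0) in the 5 cell classes (horizontal axis), with 1 point per mouse coloured by group, a bar for the mean and a line for the SD, drawn no lower than 0; open points are mice with under 10 cells. Slc2a3 stands out in neutrophils (242 CPM), Hk2 in MDM (54.6 CPM), and Ldha is lowest in B-cells (190 CPM).

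Within MDM the 74 macrophage-like cells were led by Spp1, Pf4, Arg1 and complement C1q genes. Among the leading genes of the 165 classical-monocyte-like cells were the monocyte markers Ly6c2 and F13a1 but also the neutrophil markers Cd177 and Mmp8. Set beside the classical-monocyte-like cells of the same mouse, the macrophage-like cells had the higher Gapdh level in 6 of 7 mice, with means of 1778 and 1202 CPM. Ldha was higher in 6 of 7 mice too (744 and 351 CPM) and Hk2 in 5 (138 and 38.1 CPM), whereas Hif1a was higher in 4 and lower in 3 (86.3 and 46.1 CPM). These means weight each mouse equally, and some rest on very few cells, as only 2 mice had at least 10 macrophage-like MDM, so no test was made. The sub-clusters were not spread evenly, since 27 of the macrophage-like cells came from Mono+MCTR3 mouse 2. One sub-cluster of 97 cells scored highest on the dendritic cell markers but kept no name, as it was led by basophil, haemoglobin and B-cell genes.

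The study's own question was whether monocytes exposed to MCTR3 change the leukocytes of the joint, and for these 10 genes no change passed the test. In 11 classes and kinds of cells, 73 member values were tested with edgeR's quasi-likelihood test, and 0 had an adjusted p under 0.05, 4 an unadjusted one. With DESeq2 and with edgeR's likelihood ratio test the adjusted count was also 0, with 2 and 3 under 0.05 unadjusted, against 0.185% and 0.371% of all values tested in the 11 kinds. Most genes called by these tests were in MDM, 50 with DESeq2 and 99 with the likelihood ratio test, against 15 with the quasi-likelihood test. Few genes of any kind were called by the quasi-likelihood test, with 0.468% of 3206 genes in MDM, 0.0423% of 2364 in early granule-forming neutrophils and 0% in all neutrophils together, the other 5 kinds of neutrophils, B-cells, T-cells and NK cells. The 4 values with an unadjusted p under 0.05 had 95% intervals that left out 0 when taken singly, and none passed the adjustment over all genes.

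In MDM, Hif1a had the largest fitted difference. It was at 39.6, 21.8, 27.4 and 56.2 CPM in the Mono mice, from 13, 4, 8 and 31 UMIs, and at 48.5, 86.6, 55.9 and 17.7 CPM in the Mono+MCTR3 mice, from 12, 62, 4 and 1 UMIs. The groups overlapped, with a log2 fold change of 0.68 ± 0.37 (adjusted p = 0.463). Mono+MCTR3 mouse 2 set much of it, since the value was 0.09 without that mouse. It was 1.05 without Mono mouse 4 (adjusted p = 0.343) and 0.83 without the mice with under 20 MDM (adjusted p = 0.422). The other 6 members tested in MDM lay between −0.04 and 0.20. The MDM of the groups also fell into different sub-clusters, with 5, 8, 16 and 13 nonclassical-monocyte-like cells in the Mono and 1, 4, 0 and 1 in the Mono+MCTR3 mice. Without these cells Hif1a was at 0.59 (adjusted p = 0.655), and without the sub-cluster that kept no name at 0.81 (adjusted p = 0.743). The MDM of the 2 groups differed in other ways, with 10 cell cycle genes summing to 1499 to 2286 CPM in Mono and 3492 to 6978 CPM in Mono+MCTR3 mice, and 11 immediate early and stress genes to 8201 to 13084 CPM and 3859 to 8541 CPM. Markers of other cells were counted there too. The 9 B-cell markers summed to 271 to 801 CPM in Mono and 1597 to 3104 CPM in Mono+MCTR3 mice, without overlap, and the 7 erythroid markers to 24.0 to 158 and 53.1 to 72362 CPM. Every gene of these 4 lists had UMIs in MDM, and their part in the member values was not tested. Of the macrophage-like MDM, picked out after their values were seen, Aldoa was at 808, 658, 737 and 732 CPM in the Mono mice and 1606, 1190 and 1521 CPM in the 3 Mono+MCTR3 mice that had such cells, from 2 to 27 cells per mouse. How many other members or genes separated the groups in this way is not given here, and no test was made.

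In all neutrophils together the 10 member values lay between −0.07 and 0.40 on the log2 scale. Within inflammatory neutrophils Gapdh was at 577, 617, 471 and 549 CPM in the Mono and at 742, 927, 602 and 699 CPM in the Mono+MCTR3 mice. Only the lowest Mono+MCTR3 value fell among the Mono values, and the difference was 0.50 ± 0.17 (unadjusted p = 0.0104, adjusted p = 0.857 over all genes in edgeR). It was 0.31 without Mono+MCTR3 mouse 2 and ran from 0.11, with 30 components, to 0.59 over the alternatives. In mature neutrophils Ldha was at 229, 222, 240 and 142 CPM and at 272, 289, 238 and 257 CPM, which overlap (0.36 ± 0.15, unadjusted p = 0.0281, adjusted p = 0.736 in edgeR, with 0.19 to 0.43 over the alternatives). Pkm in NK cells was at 476, 414, 397 and 378 CPM in the Mono and at 325, 368, 323 and 299 CPM in the Mono+MCTR3 mice. The difference was −0.29 ± 0.13 (unadjusted p = 0.0421, adjusted p = 0.944 in edgeR), with 0% of genes called in NK cells. Pkm in interferon-response neutrophils had 0.53 ± 0.21 (unadjusted p = 0.0264, adjusted p = 0.922 in edgeR), from 11 to 106 UMIs per mouse, and ran from 0.18 to 0.62 over the alternatives.

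**Figure D5:**
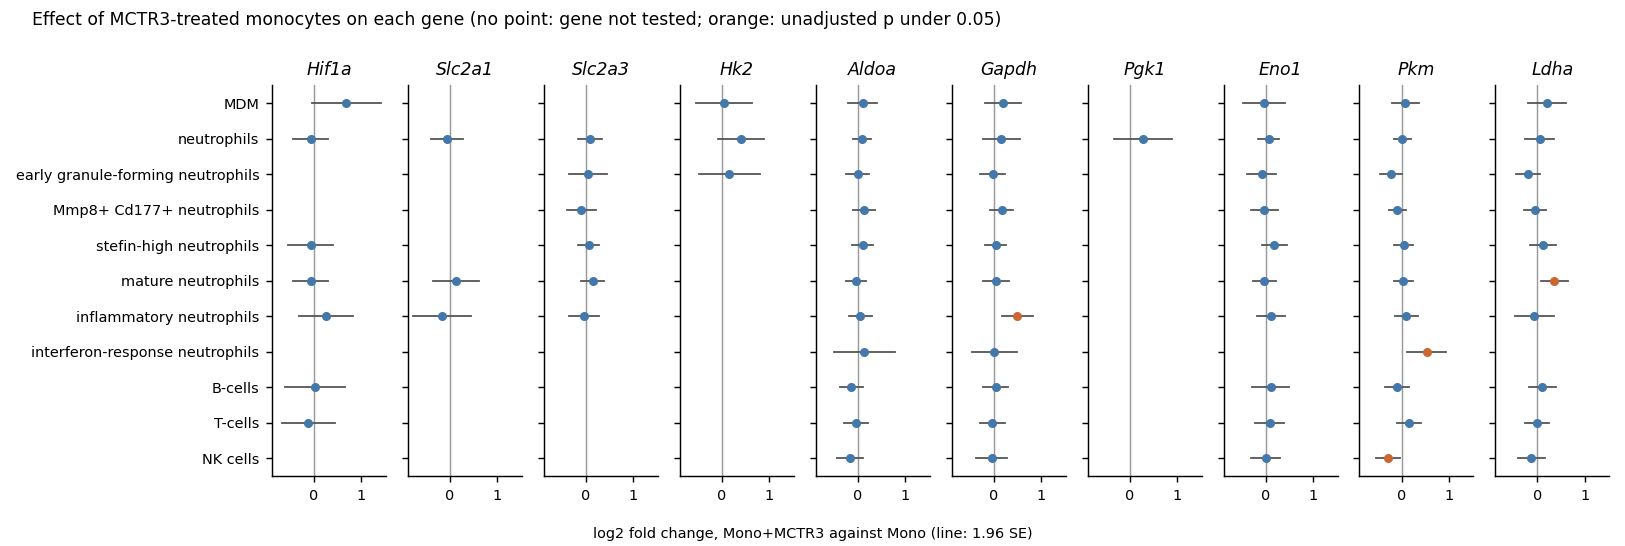
Log2 fold change of Mono+MCTR3 against Mono for each member (columns) in each class and kind of neutrophils (rows), with a line for the 95% interval; a missing point means that the gene was not tested there, and orange points have an unadjusted p under 0.05. Most points lie near 0, and the highest is Hif1a in MDM at 0.68, whose line includes 0.

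Whether MCTR3 acted differently on MDM and neutrophils was tested as an interaction with each mouse as a block. None of the 9 members tested passed, against 0.0358% of 8372 genes, and at an unadjusted p under 0.05 there was also 0. The estimates ran from −0.41 for Hk2 to 0.62 for Hif1a, with an adjusted p of at least 0.908. The SE reached 0.63 for Slc2a3, so sizeable differences could have gone unseen at this depth.

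Of the members, the patterns closest to Aldoa over the means of 10 classes and neutrophil kinds were those of Plbd1, Clec4a2 and Clec12a (Pearson r = 0.997, 0.988 and 0.987 of log2(CPM + 1), among 4056 genes), and to Pkm those of Nfe2, Sem1 and 6430548M08Rik (0.992, 0.985 and 0.984). For Slc2a3 they were Suco, Gpsm3 and Mxd1 (0.982, 0.978 and 0.977), for Gapdh Nhsl2, Anxa3 and Ifitm6 (0.972, 0.969 and 0.950), for Eno1 Slk, Ggh and Rsu1 (0.967, 0.938 and 0.918), and for Ldha Scp2, Rps6ka1 and Golim4 (0.952, 0.930 and 0.897). Hif1a was closest to Fbxo31, Jaml and Rtp4 (0.946, 0.946 and 0.937), Hk2 to Sowahc, Cebpa and Gpr141 (0.943, 0.899 and 0.897), Slc2a1 to Zfp787, Eapp and Ttc7 (0.919, 0.895 and 0.881), and Pgk1 to Eif4e3, Gas7 and Dars (0.881, 0.878 and 0.863). Among the members themselves Aldoa and Pkm went together most closely (r = 0.927 over these 10 means), and Hif1a and Ldha ran against each other (r = −0.68), as did Hif1a and the sparse Pgk1 (r = −0.85). Of the 10 points 6 are neutrophils, all share libraries, and the values are descriptions.

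Pgk1 held 159 UMIs over all cells, 6.21 ± 1.78 CPM in neutrophils and 6.65 ± 5.44 CPM in MDM, against 7134 UMIs for Eno1 and 23444 for Gapdh, which follow and precede its step in the pathway. Counts could be lost where a read fits more than 1 gene. Of the 98-base windows in the last 500 bases of the longest coding transcript, 0 of 403 occurred in another annotated gene for Pgk1 and likewise for Hif1a, Slc2a1, Slc2a3, Hk2, Aldoa, Pkm and Ldha. For Gapdh 312 of 403 occurred in another gene, mostly processed pseudogenes, and 131 in Gm3839, the one of them with a row in the tables (10 UMIs). For Eno1 198 of 403 occurred in Eno1b, which had 75 UMIs. Levels of Gapdh and Eno1 are therefore uncertain as absolute values.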

How the data were processed

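Single cell RNA libraries were made with a 3′ kit and, per the labels and the submitters' processing notes, aligned with Cell Ranger to GRCm38. The deposited values were raw UMI counts of genes by barcodes, 1 table per group, with 4 barcode suffixes each, taken here as the 4 mice of a group; a suffix could not be tied to a named sample. Libraries of a group shared 0 to 8 barcodes. No per-sample column was left unused. Barcodes with 250 to 3000 genes, 500 or more UMIs and no more than 5% of UMIs from mitochondrial genes were kept. Seurat 5.3.0 clustered them (2000 variable genes less 15 members and pathway genes, 20 components, resolution 0.5), and clusters were named from marker lists. Scrublet, run in scanpy, called 52 cells (0.507%) as doublets, which were kept in the main analysis. Counts were summed per mouse and kind of cells and tested over all genes with edgeR 4.0.16 (quasi-likelihood, TMM, filterByExpr, Benjamini-Hochberg); the script was tested on simulated data. CPM orders were tested by exact sign flips over mice. The rule for named genes was all members, the 3 genes most like each, and up to 3 pathway genes per direction with the largest change past the threshold; Gpi1, Slc16a3 and Taldo1 in early against mature neutrophils, and the HIF-1 partners named there, were picked after their values were seen. The members and lists were chosen with earlier results of these data known. Alternatives were DESeq2, the likelihood ratio test, other scaling, filters, clusterings and left-out mice. Nothing in the labels says whether the mice of a group were handled apart, so p-values measure the spread between these samples.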

Additional observations from a re-analysis of the deposited data

Results flagged for a closer look

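In 146 groups of 4 mice (a member, a kind of cells and a group), 9 had 1 mouse far from the other 3 by Dixon's ratio, and chance alone marks about 1 group in 20. Mono mouse 2 was the high one for Hif1a in all neutrophils (83.5 CPM, the next 48.5), in stefin-high (98.7 CPM, the next 54.8) and in mature neutrophils (112 CPM, the next 79.9), which share cells, and for Eno1 in Mmp8+ Cd177+ neutrophils (378 CPM, the next 331). Mono mouse 3 had 344 CPM of Eno1 in stefin-high neutrophils, the next 255. In T-cells Aldoa was low in Mono mouse 1 (326 CPM, the next 382) and in Mono+MCTR3 mouse 4 (303 CPM, the next 367). Mono+MCTR3 mouse 4 also had 306 CPM of Ldha in NK cells, the next 421, and 70.8 CPM of Hk2 in its 7 MDM, the next 56.6. No member showed an effect that differed by the interaction test between MDM and neutrophils.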

How the results depend on the processing

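No member passed an adjusted p under 0.05 between the groups in any of 224 fits over all settings (1570 member values). With library totals in place of TMM the members called numbered 5 for MDM against neutrophils (8 with TMM) and 3 for inflammatory against mature neutrophils (5 with TMM), and with Mono+MCTR3 mice alone the latter was also 3. Without the 50 genes with the most UMIs, 17 neighbour pairs of classes and 14 of neutrophil kinds differed, against 8 and 8. Signs turned in 17 values of single members, 17 lost and 10 gained an adjusted p under 0.05, and 573 kept both. In MDM against neutrophils, totals gave Aldoa 0.028, Gapdh 0.28 and Eno1 0.55. In inflammatory against mature neutrophils, Slc2a1 was at 0.13 with totals, 0.0389 with the members among the variable genes, 0.0923 at resolution 1.0, 0.0665 with 10 and 0.28 with 30 components, Aldoa and Eno1 were at 0.0579 and 0.0963 with totals, and Ldha was at −0.0838 with no upper limit on genes per cell, −0.14 with 30 components and −0.16 with Mono+MCTR3 mice alone. In early granule-forming against mature neutrophils, Eno1 was at −0.0291 with no upper limit, and Pkm at −0.26 there, −0.0549 with totals and −0.0139 with 10 components. The cause was not tested. In another clustering, each cluster took the kind to which most of its cells belonged in the one reported, whatever its own markers, so that the kinds held partly other cells there. Where no cluster fell to a kind, no value was given. Leaving out the mice with under 20 MDM was chosen after seeing the data. No paired analysis was possible because nothing ties a mouse of one group to a mouse of the other. Comparisons between kinds of cells used the mouse as a block throughout. Rare transcripts, such as Pgk1 with 159 UMIs, were at the limit of this depth.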
